A study of Mus musculus with 12 samples.

Results

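The renin-angiotensin system was followed through 6 genes in sorted cells of the newborn mouse testis: the angiotensin receptors *Agtr2* and *Agtr1a*, the angiotensin precursor *Agt*, the converting enzyme *Ace*, the renin receptor *Atp6ap2* and the angiotensin-binding aminopeptidase *Lnpep*. They were taken by name from the 54532 genes of the count and FPKM tables, and were chosen by name with measured values of these libraries already known. Their levels and fold changes are therefore given as a description, with no p-value. RNA was sequenced in bulk from 12 libraries in 4 groups of 3, namely saline germ and dex germ, saline somatic and dex somatic. All animals, the saline controls included, carried the Tg(Pou5f1-EGFP)2Mnn transgene, in which a *Pou5f1* promoter drives green fluorescent protein (GFP) in germ cells. Dams received dexamethasone (dex), a synthetic glucocorticoid, or saline by intraperitoneal injection at E17.5 and E18.5, and the male pups received it under the skin at PN0, each time at 10 μg dex per g of body weight. At PN1, testes were dissociated and OCT4-GFP-positive germ cells sorted away from somatic cells without GFP. The somatic fraction is thus every GFP-negative cell of the testis, a mixture of cell types, and each replicate held testes pooled from more than one litter.

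In the renin-angiotensin system, the protease renin cuts angiotensinogen, the product of *Agt*, and angiotensin-converting enzyme trims the fragment to angiotensin II. The peptide acts through G-protein-coupled receptors. The AT1 receptor raises blood pressure and drives growth of vessels and smooth muscle, whereas the AT2 receptor, which is best known from fetal mesenchyme, opposes many of these actions. The tissue system of the testis is best known in the adult, where Leydig cells hold renin and developing sperm make a short form of the converting enzyme.

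Library totals lay between 18459692 and 25178477 counts, and 3 counts, the limit that a count of 0 allows, corresponded to 0.111 to 0.170 CPM (counts scaled to library size by TMM, the trimmed mean of M values). These limits cover counting error only. The sort showed in every library: 5 germ cell markers summed to 2097 to 2399 CPM in germ libraries and to 1.42 to 4.65 CPM in somatic libraries. Among them *Dppa3* was at 0 in all 6 somatic libraries, but it had only 5 to 22 counts in germ libraries. *Ddx4* and *Dazl* were present in each somatic library, at 8 to 34 and 8 to 46 counts. Markers of Sertoli cells (5 genes, 2686 to 3281 CPM) and of stroma and peritubular cells (6 genes, 2442 to 4017 CPM) were abundant in somatic libraries. None of the genes of either list was at 0 throughout a germ cell group, where the lists summed to 16.3 to 34.7 CPM and 26.8 to 36.1 CPM. Fetal Leydig markers (5 genes) summed to 85.3 to 200.1 CPM in somatic libraries.

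The 250 bases before the RefSeq start of the genes (GRCm38.p6, 5′ to 3′ on the gene's strand) are shown for *Agtr2* and *Agt*, the members with the best-measured differences in somatic cells, cut back to what lies before the earliest annotated start. Capitals mark TATAAA, the letters of a TATA box. *Agtr2* lies at chrX:21484544-21489164 (+), and its window covered 170 bases, chrX:21484374-21484543. *Agt* lies at chr8:124556534-124569706 (-), and its window covered 250 bases, chr8:124569707-124569956.

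Agtr2: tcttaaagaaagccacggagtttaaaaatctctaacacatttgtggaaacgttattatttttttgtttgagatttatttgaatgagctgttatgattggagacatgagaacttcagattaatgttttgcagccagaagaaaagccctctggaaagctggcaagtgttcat

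Agt: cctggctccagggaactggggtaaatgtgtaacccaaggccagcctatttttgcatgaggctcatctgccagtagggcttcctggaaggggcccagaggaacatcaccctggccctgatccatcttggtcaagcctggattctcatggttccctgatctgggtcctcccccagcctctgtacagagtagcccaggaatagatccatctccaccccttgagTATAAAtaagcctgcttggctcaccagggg

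The letters TATAAA stood 30 to 25 bases before the *Agt* start, and were present on the forward strand in 7.59% of 32851 RefSeq promoters of the same length. The letters TGTTCT, an arm of the element to which the glucocorticoid receptor binds as a dimer, were searched on both strands (AGAACA on the reverse), and AGAACA followed 3 bases later by TGTTCT was searched as the paired form. Neither the single arm, which 16.1% of promoters held, nor the pair, which 3 promoters held, was found in the full 250-base windows of *Agtr2* or *Agt*. In *Atp6ap2* (chrX:12587801-12617049, +) a single arm stood 131 to 126 bases before the RefSeq start. A match or its absence describes these letters in these windows only.

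*Agtr2* was the most abundant of the 6 genes in somatic cells, and it was higher in each dex library than in any saline library. Its counts in replicates 1, 2 and 3 were 2819, 3818 and 2858 in saline somatic cells and 5799, 8595 and 7369 in dex somatic cells. On the FPKM scale (fragments scaled to gene length and library depth) the libraries read 40.8, 45.8 and 39.8 in saline and 93.6, 126.9 and 107.0 in dex, with means of 42.2 ± 3.19 and 109.2 ± 16.8 (SD, n = 3). The groups did not overlap, and the lowest dex library stood well above the highest saline library. The log2 fold change was 1.37 ± 0.10 (SE), a fold of 2.58. By its mean FPKM *Agtr2* held rank 1098 of 22046 protein-coding genes in saline somatic cells and rank 364 in dex somatic cells. A gene was called where the quasi-likelihood test of edgeR gave a Benjamini-Hochberg adjusted p at or under 0.05. In dex against saline in somatic cells 3.91% of the 16766 genes tested were called, and 21.4% had groups that did not overlap in CPM. *Agtr2*, *Agtr1a* and *Agt* were called and *Ace*, *Atp6ap2* and *Lnpep* were not, which is given for completeness, since the members were chosen with this contrast known.

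**Figure D1:**
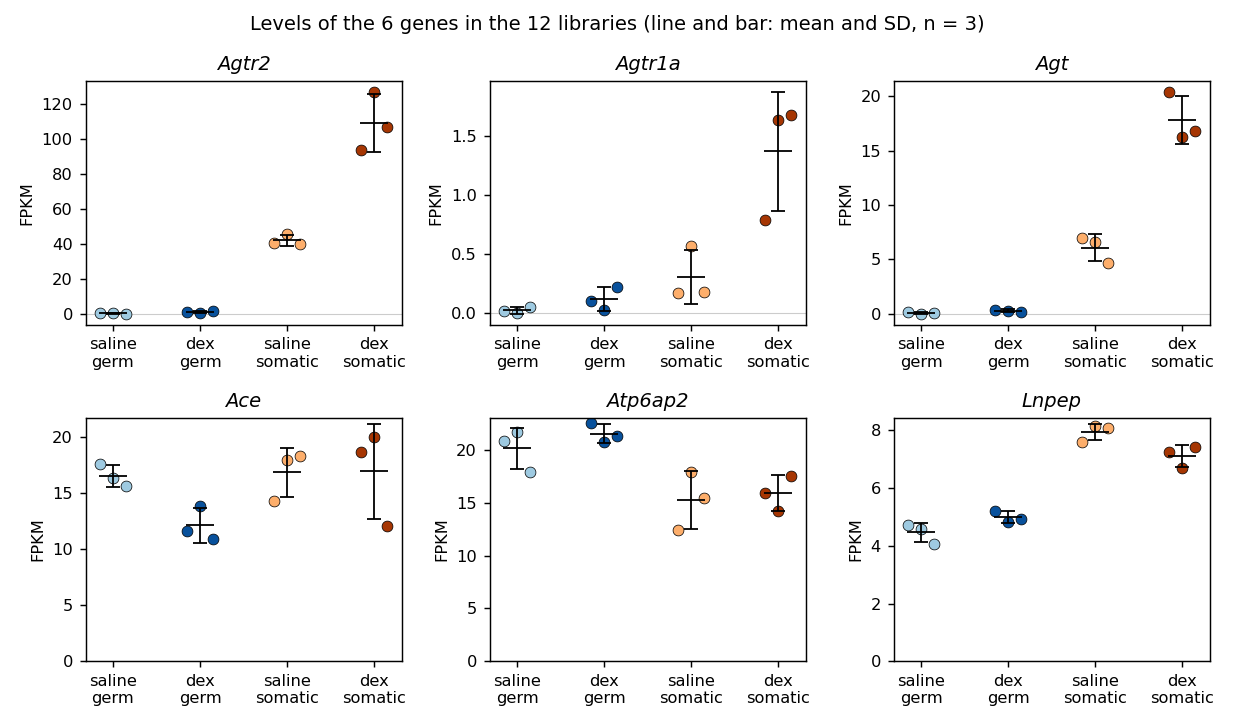
FPKM of the 6 genes in each library (points, replicates 1 to 3 from left to right) with the mean and SD of each group (n = 3), on linear axes that differ between panels. *Agtr2* and *Agt* separate the somatic from the germ libraries and dex from saline somatic libraries. The mean of *Ace* is lowest in dex germ cells. Their libraries, at 10.9 to 13.9 FPKM, overlap those of dex somatic cells, at 12.1 to 20.1 FPKM.

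Markers of stroma and peritubular cells moved with *Agtr2* across the somatic libraries. All 6 were higher in dex, 3 of them called: *Acta2*, smooth muscle actin (0.44 ± 0.077, adjusted p = 0.00367), *Pdgfra*, a receptor of mesenchymal cells (0.50 ± 0.11, adjusted p = 0.0132), and *Dcn*, a matrix proteoglycan (0.72 ± 0.11, adjusted p = 0.000986). Their summed level was 2442 to 3082 CPM in saline and 3511 to 4017 CPM in dex. Expressed per 100 CPM of this list, *Agtr2* stood at 5.52 ± 0.141 CPM in saline and 10.1 ± 1.01 CPM in dex somatic cells (SD, n = 3). The ranges were 5.44 to 5.69 and 8.98 to 10.8. The 5 Leydig markers were all lower, *Star*, which carries cholesterol into mitochondria, being called (-0.69 ± 0.14, adjusted p = 0.0102). The 5 macrophage markers were all lower, with *Csf1r* called (-1.75 ± 0.28, adjusted p = 0.002), and of 4 erythroid markers tested, all lower, the globins *Hbb-bs* and *Hbb-bt* were called (adjusted p = 0.0471 and 0.0472). Of 5 Sertoli markers and 5 endothelial markers none was called by edgeR, although 1 and 3 had an unadjusted p under 0.05 and DESeq2 called 1 endothelial marker and limma on FPKM none. Of the lists with an edgeR call, limma on FPKM called 1 stroma and peritubular marker and 0 Leydig, 0 macrophage and 0 erythroid markers. DESeq2 called *Dcn*, *Acta2* and *Pdgfra*, the Leydig marker *Star* and the macrophage markers *Csf1r* and *C1qa*. Of the erythroid markers it called *Hbb-bt* alone. The part of these marker shifts in the *Agtr2* difference was not tested. In bulk RNA, more cells of a type and more RNA per cell cannot be told apart.

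In germ cells *Agtr2* was at low counts, which were again higher in dex. Replicates 1, 2 and 3 held 19, 30 and 14 counts in saline and 76, 71 and 98 counts in dex. The means were 0.312 ± 0.146 and 1.10 ± 0.302 FPKM (SD, n = 3), and the groups did not overlap. The log2 fold change was 1.80 ± 0.37. In this comparison 1.25% of 18550 genes were called and 20.0% had groups that did not overlap, and *Agtr2* and *Ace* were the members called among the 4 that passed the filter on low counts. The *Agtr2* call was lost in 6 of 14 alternative analyses, among them the fits without dex germ replicate 1 or 3 and without saline germ replicate 1 or 3, with a log2 fold change of 1.57 to 2.23 throughout. *Agtr2* in germ libraries was also a small share of its level in somatic libraries: 0.445% to 1.04% in the 3 saline germ libraries and 0.694% to 1.21% in the 3 dex germ libraries, each taken against the mean of the somatic libraries of the same treatment. The stroma and peritubular list stood at 0.987% to 1.28% and 0.806% to 0.969% in the same libraries, and the Sertoli list at 0.846% to 1.17% and 0.546% to 0.817%. Cells or RNA of the somatic fraction in the germ libraries, of which these lists are a reading, were not tested as a source of the *Agtr2* counts.

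**Figure D2:**
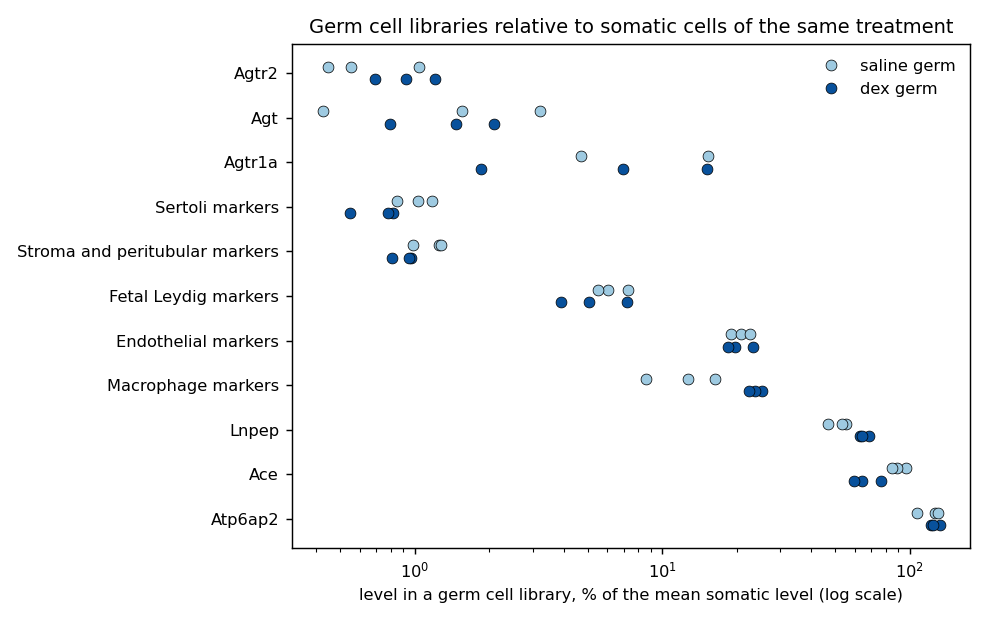
Level in each germ cell library as a percent of the mean level in somatic libraries of the same treatment, on a log axis, for the 6 genes and for the summed CPM of 5 marker lists. *Agtr2* lies between 0.445% and 1.21% and *Agt* between 0.425% and 3.21%. The Sertoli and stromal markers lie between 0.546% and 1.28%. Leydig markers lie between 3.90% and 7.28%, endothelial markers between 18.4% and 23.2% and macrophage markers between 8.57% and 25.2%. The genes behind these sums differ widely. By group mean in saline, *Pecam1* is at 151% and *Cdh5* at 9.99% in the endothelial list. *Cd68* is at 40.1% and *C1qb* at 1.08% in the macrophage list. *Lnpep*, *Ace* and *Atp6ap2* lie between 46.9% and 132%. The saline germ library in which *Agtr1a* had 0 counts cannot be drawn.

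*Agtr1a* (chr13:30336441-30382867, +), which encodes the main AT1 receptor of mice, was scarce in every group. Its counts were 10, 40 and 11 in saline somatic cells and 41, 93 and 97 in dex somatic cells, or 0.310 ± 0.228 and 1.37 ± 0.503 FPKM (SD, n = 3). The groups did not overlap, but saline replicate 2 lay just below dex replicate 1. The log2 fold change was 2.12 ± 0.53, and the call was lost in 6 of 14 alternatives, among them leaving out dex somatic replicate 2 or 3 or saline somatic replicate 1 or 3. The log2 fold change lay between 1.84 and 2.92 over the alternatives, the highest without saline somatic replicate 2. Germ cells held 1, 0 and 3 counts in saline and 6, 2 and 13 counts in dex, under the filter for that test, so no fold is given. Per length, the mean *Agtr2* level was far above that of *Agtr1a* in every group. Of the 64-base words of *Agtr1a*, 0.169% also occur in *Agtr1b*, so few reads could be exchanged between the paralogs.

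The other angiotensin receptors were also at low counts. *Agtr1b*, the second AT1 receptor gene, had 3 to 18 counts in somatic and 0 to 4 counts in germ libraries, with a log2 fold change of -0.07 ± 0.82 in somatic cells (adjusted p = 0.983). *Mas1*, which encodes a receptor for a shorter angiotensin peptide, differed in the other direction from *Agtr2* between the populations. It held 26, 38 and 47 counts in saline germ cells and 0, 15 and 7 counts in saline somatic cells, and its germ cell level was higher, by 2.37 ± 0.78 on the log2 scale (adjusted p = 0.0149). With dex its counts were 17, 20 and 27 in somatic cells, and the difference from saline did not pass the test (1.75 ± 0.89, adjusted p = 0.359). *Mrgprd*, another receptor of the family, had 3 counts in 1 dex somatic library and none in the other 11 libraries.

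*Agt*, the only source of angiotensin peptides, was also higher in every dex than in any saline somatic library. Its counts were 273, 314 and 189 in saline somatic cells and 717, 625 and 659 in dex somatic cells. The levels were 6.07 ± 1.26 and 17.8 ± 2.23 FPKM (SD, n = 3), the groups did not overlap, and the log2 fold change was 1.55 ± 0.16, a fold of 2.92. The fold lay between 1.39 and 1.66 on the log2 scale over 14 alternatives. The gene was called in each, which is given for completeness only, since the members were chosen with this contrast known. Per 100 CPM of the stroma and peritubular list, *Agt* stood at 0.450 ± 0.0757 CPM in saline and 0.948 ± 0.161 CPM in dex. *Agtr1a* stood at 0.0327 ± 0.0210 and 0.107 ± 0.0390 CPM on the same scale. In germ cells *Agt* had 9, 1 and 4 counts in saline and 16, 14 and 6 counts in dex, the groups overlapped, and the gene was not tested.

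*Ren1*, the renin gene, fell in dex somatic cells while its substrate gene *Agt* was higher. It had 385, 365 and 282 counts in saline and 203, 115 and 162 counts in dex, or 9.29 ± 1.71 and 4.90 ± 1.59 FPKM (SD, n = 3). The groups did not overlap, and the log2 fold change was -0.93 ± 0.23 (adjusted p = 0.032). The call did not hold in the fits without dex somatic replicate 2 or 3 or without saline somatic replicate 1, 2 or 3 (adjusted p 0.0545 to 0.163). It was also lost with limma on FPKM. The Leydig list summed to 117.6 to 200.1 CPM in saline and 85.3 to 172.7 CPM in dex, which overlap, and of its 5 genes only *Star* was called. Per 100 CPM of the Leydig list, *Ren1* stood at 10.7 ± 2.62 CPM in saline and 7.22 ± 0.832 CPM in dex. The ranges were 8.62 to 13.6 and 6.65 to 8.17. The part of the Leydig markers in the *Ren1* difference was not tested. Germ libraries held 7 to 21 counts of *Ren1* in saline and 5 to 7 in dex.

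*Ace* (chr11:105967945-105989964, +), whose product makes angiotensin II, behaved unlike *Agtr2* and *Agt*: its level was similar in both populations, and lower in dex germ cells. Germ libraries held 2101, 1632 and 1695 counts in saline and 1303, 1929 and 1197 counts in dex. The levels were 16.5 ± 0.973 and 12.2 ± 1.57 FPKM (SD, n = 3), the groups did not overlap once scaled to library size, and the log2 fold change was -0.47 ± 0.10. The call was lost in 8 of 14 alternatives, among them scaling by library totals and leaving out dex germ replicate 1 or 3 or saline germ replicate 1 or 2, with the log2 fold change between -0.58 and -0.39. In somatic cells the levels were 16.9 ± 2.21 FPKM in saline and 17.0 ± 4.25 FPKM in dex, the groups overlapped, and the log2 fold change of 0.0021 ± 0.15 took either sign over the alternatives. *Ace* has an internal start from which the short testis form is read, with RefSeq starts at positions 105967948 and 105975189 of chromosome 11. The counts per gene do not tell the forms apart. An antisense gene, *Gm11651*, shares 295 exonic bases (5.58%) with *Ace* and had 0 to 15 counts in a library.

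**Figure D3:**
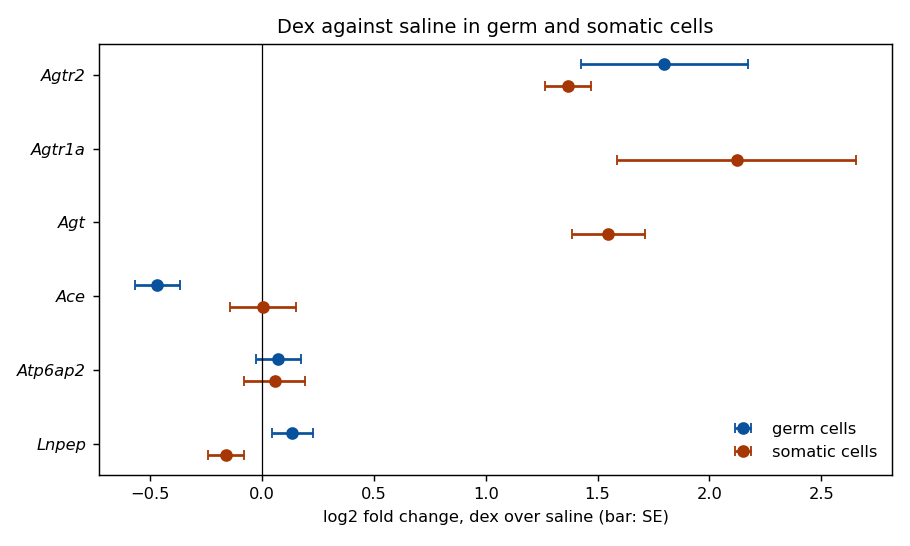
Log2 fold change of dex over saline with its SE for each gene in germ cells (blue) and somatic cells (brown). *Agtr1a* and *Agt* have no germ cell value because their counts were below the filter, and *Ace* is the only gene drawn in both populations whose germ cell value lies well below 0.

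*Atp6ap2*, the renin receptor and a subunit that helps assemble the vacuolar proton pump (V-ATPase), was present in all groups. It stood at 20.1 ± 1.96 FPKM in saline germ, 21.5 ± 0.895 in dex germ, 15.2 ± 2.78 in saline somatic and 15.9 ± 1.67 FPKM in dex somatic cells (SD, n = 3). The log2 fold change with dex was 0.07 ± 0.10 in germ cells and 0.06 ± 0.14 in somatic cells, and the groups overlapped in each. *Gm36448*, a gene that holds 1.02% of its 64-base words, had 0 counts in every library. Of 15 V-ATPase genes tested in each population, none was called with dex by edgeR, DESeq2 or limma. The unadjusted p was under 0.05 for 1 gene in germ cells and 1 in somatic cells, and the medians were 0.0048 and 0.0055 beside -0.0027 and -0.0066 over all genes. Between saline germ and somatic cells, 14 of the 15 were called, 8 higher and 6 lower in germ cells, in a comparison that called 76.5% of all genes tested. The pump subunits *Atp6v1b2* (1.35 ± 0.078, adjusted p = 1.14e-08) and *Atp6v1h* (1.18 ± 0.089, adjusted p = 1.32e-07) of its outer part were higher, while *Atp6v0a1* (-2.12 ± 0.11, adjusted p = 5.92e-09) and *Atp6v0e* (-1.56 ± 0.13, adjusted p = 4.03e-07) of its membrane part and the accessory subunit *Atp6ap1* (-1.58 ± 0.082, adjusted p = 4.09e-09) were lower in germ cells. The parts did not divide cleanly. *Atp6v0d1* of the membrane part was higher (0.56 ± 0.084, adjusted p = 6.87e-05) and *Atp6v1g1* of the outer part lower (-0.59 ± 0.10, adjusted p = 0.000251), and *Atp6v0b* was not called.

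*Lnpep* (chr17:17521410-17625050, -), an aminopeptidase that binds a short angiotensin fragment and cleaves oxytocin, was lower in germ than in somatic cells. The counts were 1510, 1225 and 1180 in saline germ and 2235, 2890 and 2462 in saline somatic cells, or 4.47 ± 0.342 and 7.94 ± 0.288 FPKM (SD, n = 3), and the log2 fold change of germ over somatic was -0.95 ± 0.092. With dex it was 4.99 ± 0.207 FPKM in germ and 7.12 ± 0.385 FPKM in somatic cells. The dex difference was -0.16 ± 0.082 in somatic cells, where every dex library lay below every saline library, and 0.14 ± 0.093 in germ cells, where the libraries overlapped on the CPM scale. Neither was called. Of 8 related M1 aminopeptidases tested, edgeR called none with dex in either population, nor did DESeq2 or limma, and the unadjusted p of *Anpep* alone was under 0.05 in each. With no filter on low counts, edgeR called *Anpep* in germ cells. Between the populations 7 were called, 2 higher and 5 lower in germ cells, beside 76.5% of all genes. *Rnpepl1* (-3.73 ± 0.13, adjusted p = 1.08e-10), *Lvrn* (-4.02 ± 0.23, adjusted p = 9.11e-09) and *Enpep*, which removes the first residue of angiotensin II (-5.57 ± 0.21, adjusted p = 2.63e-10), were among the lower. *Npepps* was lower by less (-0.27 ± 0.087, adjusted p = 0.0127), and the call was lost with every other scaling tried.

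In saline, the 6 genes fell apart by population. *Agtr2* was 42.2 FPKM in somatic and 0.312 FPKM in germ cells, a log2 fold change of -7.22 ± 0.20 for germ over somatic. It was -5.77 ± 0.43 for *Agt* and -3.77 ± 0.91 for *Agtr1a*, the last resting on 0 to 3 counts in germ libraries. Single libraries weighed on both: without saline germ replicate 1 the value was -6.59 for *Agt*, and without saline germ replicate 3 it was -5.01 for *Agtr1a*. On the log2(FPKM + 0.1) scale of limma, *Agtr1a* differed by -1.63 and *Agt* by -4.92. It was -0.15 ± 0.11 for *Ace* and 0.27 ± 0.15 for *Atp6ap2*. The groups of both overlapped, and *Atp6ap2* was called in 7 of 14 alternatives, DESeq2 and limma among them. Differences between the populations are so widespread that 76.5% of 18870 genes were called and 79.7% did not overlap, so that the 4 members called (*Agtr2*, *Agt*, *Agtr1a* and *Lnpep*) stand against that background. In somatic cells the order by FPKM in saline was *Agtr2*, *Ace*, *Atp6ap2*, *Lnpep*, *Agt* and *Agtr1a*, and of neighbours only *Ace* and *Atp6ap2* overlapped. In dex somatic cells *Agt* stood at the level of *Ace* and *Atp6ap2*, and the libraries of these 3 genes overlapped. In germ cells the order was *Atp6ap2*, *Ace*, *Lnpep*, *Agtr2*, *Agt* and *Agtr1a* in both treatments, and *Agtr2* and *Agt* overlapped in saline and *Agt* and *Agtr1a* in both. Across the groups, *Agtr2* went from dex somatic to saline somatic, dex germ and saline germ with no neighbours overlapping, whereas for *Agt* and *Agtr1a* dex germ and saline germ overlapped and for *Agtr1a* dex germ also reached into saline somatic.

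Of 25 other genes of the pathway, written down from general knowledge but with earlier results of these data known, 24 were in the table. Genes of the lists and *Zbtb16* were thus not picked blind to the data, and their p-values do not allow for that choice. In saline, 15 of the 17 tested were called between the populations, 5 higher and 10 lower in germ cells, near the 76.5% of all genes called there, with a median of -1.30 beside 0.07 over all genes. *Arap1*, which binds the AT1 receptor (-2.73 ± 0.084, adjusted p = 4.63e-11), *Enpep* and *Rnpep*, an aminopeptidase that can trim angiotensin peptides (-5.40 ± 0.23, adjusted p = 8.84e-10), were lower in germ cells. *Nln*, neurolysin, which cleaves angiotensin peptides, was higher in germ cells (1.75 ± 0.091, adjusted p = 4.23e-09). *Ren1* was lower (-4.80 ± 0.33, adjusted p = 6.07e-08), at 0.352 ± 0.186 FPKM in saline germ against 9.29 ± 1.71 FPKM in saline somatic cells.

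**Figure D4:**
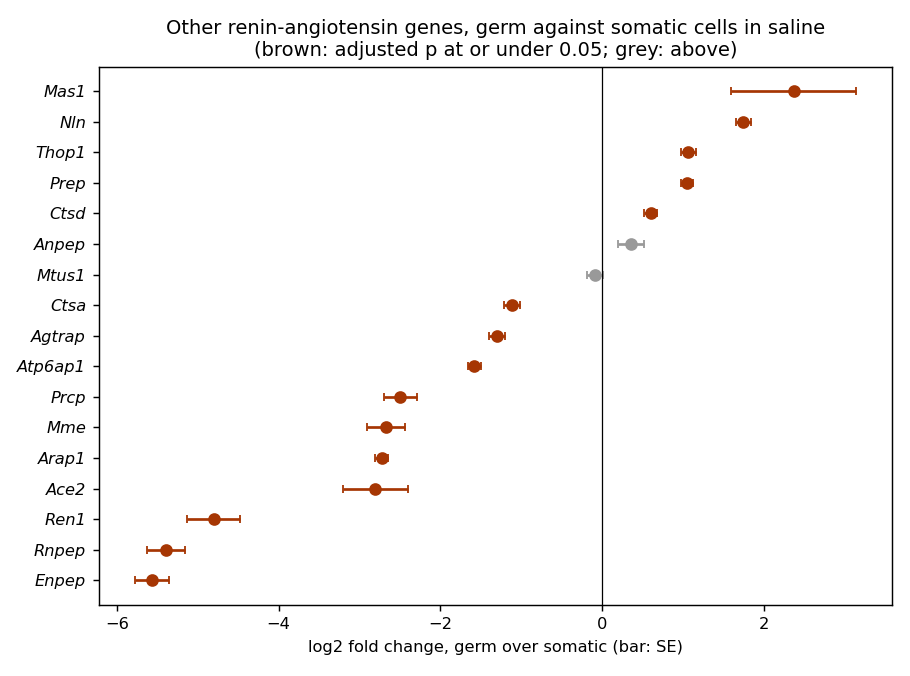
Log2 fold change of germ over somatic cells in saline with its SE for the 17 other renin-angiotensin genes tested. Brown points are the 15 genes called, 5 of them above 0 and 10 below, and *Enpep* and *Rnpep* lie lowest.

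Dex left most of these genes without a call. In somatic cells 2 of 20 tested were called, against 3.91% of all genes: *Ren1* and *Ctsd*, a lysosomal protease that can cut angiotensinogen. *Ctsd* rose from 63.3 ± 6.27 to 82.2 ± 3.73 FPKM (SD, n = 3), with a log2 fold change of 0.37 ± 0.086 (adjusted p = 0.0221). The call was lost without dex somatic replicate 2 or 3 or saline somatic replicate 1 or 2 (adjusted p 0.0664 to 0.129) and with limma. As many of the 20 lay above 0 as below, with a median of 0.03. An unadjusted p under 0.05 was found for 10 of them and for 2701 of all 16766 genes tested. DESeq2 called 3, adding *Arap1*, and limma on FPKM 0. In germ cells edgeR called none of 16, although 4 had an unadjusted p under 0.05 (2736 of all 18550 genes) and DESeq2 called 2 (limma on FPKM 0). The median there was 0.09.

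**Figure D5:**
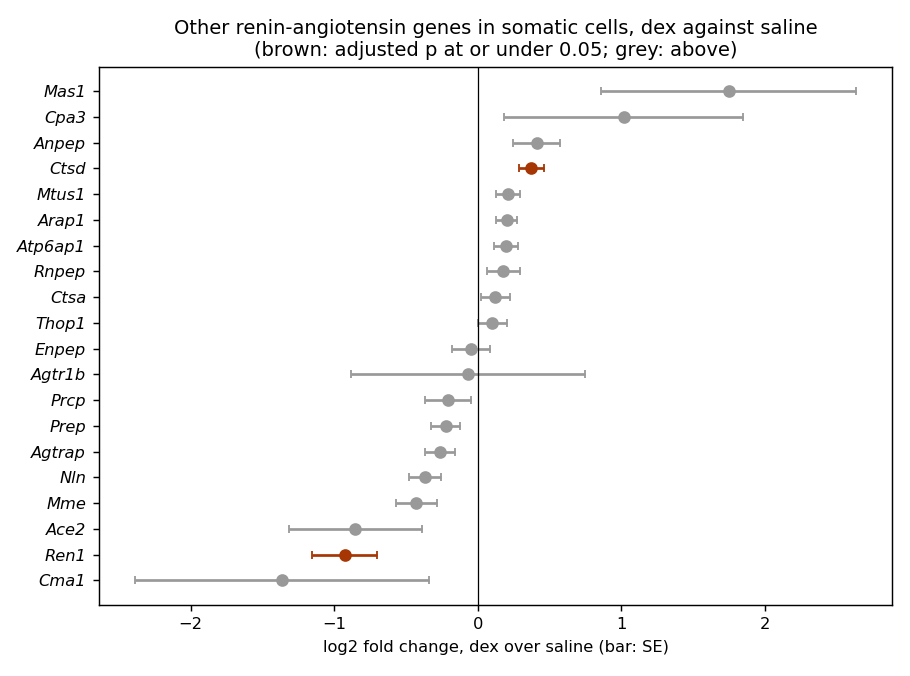
Log2 fold change of dex over saline in somatic cells with its SE for the 20 other renin-angiotensin genes tested. The 2 brown points, *Ctsd* at 0.37 and *Ren1* at -0.93, are those called, and the widest bars belong to genes of low count such as *Cma1*, *Mas1*, *Cpa3* and *Agtr1b*.

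The kinin genes share the converting enzyme with the angiotensin pathway, since ACE also degrades bradykinin. All 4 of 8 listed that could be tested were called between saline germ and somatic cells, where 76.5% of all genes were, and 3 were higher in germ cells. *Bdkrb2*, the bradykinin B2 receptor, stood at 3.09 ± 0.309 FPKM in saline germ and 0.138 ± 0.0497 FPKM in saline somatic cells (log2 fold change 4.35 ± 0.30, adjusted p = 6.72e-08). *Cpn1* (7.78 ± 0.52, adjusted p = 3.99e-08) and *Cpm* (3.66 ± 0.50, adjusted p = 3.08e-05), carboxypeptidases that shorten kinins, were higher too, and *Klkb1*, plasma prekallikrein, was lower (-4.77 ± 0.74, adjusted p = 8.51e-05). *Cpn1* had 0 to 6 counts in saline somatic libraries, and *Klkb1* had 0 to 3 counts in saline germ libraries. Each passed the filter on low counts through the population where it was high, so its call was close to given and its fold is uncertain. With dex, edgeR called none of the 3 tested in either population. The unadjusted p was under 0.05 for *Cpm* in germ cells, which DESeq2 and edgeR with no filter called and limma did not. It was also under 0.05 for *Klkb1* in somatic cells, which neither DESeq2 nor limma called.

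Whether the dex difference was unlike between the populations was examined as the dex effect in germ cells minus that in somatic cells, over all 12 libraries. Of 20551 genes, 0.827% were called. For the members the difference is given as a description. It was 0.47 ± 0.32 for *Agtr2*, 0.33 ± 0.12 for *Lnpep*, -0.43 ± 0.22 for *Ace*, -0.33 ± 0.65 for *Agt*, 0.12 ± 0.72 for *Agtr1a* and 0.06 ± 0.19 for *Atp6ap2*. *Agt* and *Agtr1a* passed the filter of this fit through their somatic counts. Germ libraries held 1 to 16 counts of *Agt* and 0 to 13 of *Agtr1a*, under the filter of the germ cell test. Their values therefore say little on germ cells, and their SEs leave room for large differences in either direction. None of the other pathway genes was called by edgeR, DESeq2 or limma, with 4 of 20 under an unadjusted p of 0.05 (2730 of all 20551 genes), and none of 4 kinin genes (1 under it), 15 V-ATPase genes (1) or 9 aminopeptidases (0).

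*Zbtb16*, which encodes a zinc finger protein known to bind the AT2 receptor and the renin receptor, went from 0.209 ± 0.154 FPKM in saline to 3.40 ± 0.985 FPKM in dex somatic cells (log2 fold change 3.98 ± 0.37, adjusted p = 1.6e-05) and stood at 65.9 ± 5.31 and 58.4 ± 2.36 FPKM in saline and dex germ cells. *Nr3c1*, the glucocorticoid receptor gene, was present in both populations, at 4.61 ± 0.883 FPKM in saline somatic and 13.1 ± 0.566 FPKM in saline germ cells.

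The genes whose log2 CPM followed *Agtr2* most closely over the 6 somatic libraries were *Ndrg2*, *Rtn2*, *Il1r2*, *Zfp606* and *Cryab*, with Pearson's r of 0.993 to 0.995. *Il1r2* was near the floor in saline somatic cells, at 0.110 CPM, and at 1.65 CPM in dex somatic cells. It stood at 11.6 and 11.2 CPM in saline and dex germ cells, and passed the filter on mean level over all 12 libraries through these. Of 13395 genes compared, 200 had an r above 0.95. Over all 12 libraries they were *Tmem44*, *Fgl2*, *P4ha1*, *Fgfr1* and *Cuedc2*, at 0.993 to 0.995, with 2207 genes above 0.95. For *Agt* they were *Galns* and *Ripor2* (0.997 and 0.993), for *Lnpep* *Zfp266* and *Kdm7a* (0.995 and 0.991), for *Agtr1a* *Rps15a* and *B3galnt1* (0.971 and 0.965), for *Atp6ap2* *Ubxn7* and *Ppp4r3a* (0.949 and 0.945), and for *Ace* *Gm10123* and *Fgf12* (0.897 and 0.868). These values rest on libraries that fall into separate groups and share their depth and sort, and describe the likeness only. *Fgl2* shows what such a profile looks like, with 19.4 CPM in saline somatic, 39.3 in dex somatic, 0.194 in saline germ and 0.700 CPM in dex germ cells.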

How the data were processed

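RNA from sorted PN1 testis cells was sequenced in 12 libraries, 3 in each of 4 groups taken from the labels. The authors selected mRNA on poly-dT, sequenced paired ends, aligned them to mm10 with HISAT2 2.0.5 and counted reads per gene with featureCounts 1.5.0-p3. These raw counts are what the deposited table gives. The deposited FPKM values were computed by the authors from count, gene length and depth. The annotation release and strand setting are not given in the sources used here, so reads of overlapping antisense genes cannot be told apart. Gene positions were identical to GENCODE M21 for all 6 members. The authors' DESeq2 1.20.0 tables of fold changes and p-values were not used.

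The members and lists were chosen with earlier results of these data known. Counts of each pair of groups were fitted with edgeR 4.0.16 (R 4.3.3), with TMM normalization, filterByExpr at a minimum count of 10 and the quasi-likelihood test, two-sided, with adjustment over all genes tested. The difference of dex effects was a contrast in a fit of the 4 groups together. TMM factors of all 12 libraries set the CPM scale. The script was tested on simulated data. Alternatives were RLE size factors, library totals, filters on low counts, DESeq2 1.42.0 and limma 3.58.1 on log2(FPKM + 0.1). Others were the replicate number as a block, all libraries in 1 fit, and leaving out each library. In the difference of dex effects the block was treatment and replicate number together. Named are the members, the receptor and renin genes, up to 5 called genes per list and comparison with the lowest adjusted p, *Zbtb16* and *Nr3c1*, and the genes most like a member by Pearson's r of log2 CPM (prior count 2) among genes with a mean of at least 1. *Ren2* and *Aopep* were not analysed here. Marker lists of mast, adrenocortical and Wolffian duct cells were measured too. They summed to 0.907 to 2.79, 0.194 to 2.49 and 3.96 to 8.96 CPM in somatic libraries. Promoters and motif searches used RefSeq (GRCm38.p6).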

Additional observations from a re-analysis of the deposited data

How the results depend on the processing

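The members called with dex kept their sign in all alternatives in which they could be fitted. Counts of called genes moved more. In germ cells dex against saline gave 231 genes, and 767 with no filter on low counts, 675 with DESeq2, 6 with limma on FPKM, 142 with all 12 libraries in 1 fit and 49 to 265 when a library was left out (49 without saline germ replicate 1, 75 without saline germ replicate 2, 102 and 115 without dex germ replicates 3 and 1). In somatic cells 655 genes became 1061 with no filter, 251 with limma and 354 to 547 with a library left out (354 and 383 without saline somatic replicates 3 and 1, 398 without dex somatic replicate 2). The difference of dex effects gave 170 genes, and 706 with no filter, 262 with at least 10 counts in every library, 620 with DESeq2, 57 with limma and 79 to 172 with a library left out (79 without saline somatic replicate 3). Of the other pathway genes, germ cells had 2 called in place of 0 with no filter and with DESeq2, and somatic cells had 4 in place of 2 with no filter, 0 with limma and 0 to 2 with a library left out. The cause of these changes was not tested. With library totals in place of TMM, higher genes went from 70.1% to 53.5% of the calls in somatic cells and from 50.0% to 67.0% in the difference of dex effects, and the median over all genes between germ and somatic cells went from 0.07 to 0.21, which is a shift that the values of *Ace* (-0.15, then -0.02) and *Lnpep* (-0.95, then -0.82) share. Depth limits *Agtr1a* and *Agt* in germ cells, with 0 to 16 counts.

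The replicate numbers were not taken to pair the libraries. Between saline germ and saline somatic cells, libraries of the same number deviated together a little (r = 0.091, 0.115 and 0.102, each library correlating best with its own number). Between dex germ and dex somatic cells they did not (r = 0.0105, -0.0270 and -0.0154), nor between dex and saline (r from -0.174 to 0.0878). Dex germ replicate 2 and saline germ replicate 3, of different numbers, reached an r of 0.256. With the replicate number as a block, 65 genes were called in germ cells, without *Agtr2* and *Ace*. In somatic cells this block gave 669 genes and 3 pathway genes. In the difference of dex effects the block was treatment and replicate number together, which joined germ with somatic libraries, and 90 genes were called.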

Other observations

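*Mcpt4*, a mast cell protease of the chymase family that can make angiotensin II, was chosen here after its values were seen. It had 3, 10 and 34 counts in the saline somatic libraries and 0 counts in the other 9 libraries, and was below the filter on low counts. With no filter, edgeR called it in dex against saline somatic cells, while DESeq2 and limma did not. The mast cell gene *Cpa3* had 3, 14 and 16 counts in saline and 16, 38 and 5 counts in dex somatic libraries, which overlapped. *Ace3*, a relative of *Ace*, had 7, 11 and 1 counts in saline germ libraries, 0, 1 and 1 counts in dex germ libraries and 0 counts in all 6 somatic libraries.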
